A study of Caenorhabditis elegans with 16 samples.

Results

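The C-type lectin genes of *Caenorhabditis elegans* carry the symbol clec followed by a number. All genes of the deposited count table with such a symbol were taken as members, which gave 240 gene IDs of 46904 counted. They bore 237 symbols, because *clec-15*, *clec-209* and *clec-249* each named 2 gene IDs of equal length. C-type lectins are proteins with a domain that in many relatives binds sugars in the presence of calcium. Nematodes hold a large family of them, most with a signal for secretion, and the intestine and other surfaces that meet microbes are known sites of their expression. Many of the genes respond to infection, each pathogen with its own set, and several are used as readouts of intestinal defence.

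Whole animals of 4 genotypes were sequenced at the L4 larval stage, with 4 biological replicates each, at 20 °C on *Escherichia coli* OP50-1 and without infection. The groups were the wild type (WT, strain N2), *pals-25(jy111)*, *pals-22(jy3)* and the double mutant *pals-22(jy3) pals-25(jy9)*. *pals-22* and *pals-25* lie in 1 operon, and their products oppose each other: PALS-22 represses and PALS-25 promotes a transcriptional response to natural intracellular pathogens and oomycetes. The jy111 allele was made by CRISPR and places a stop codon near the end of PALS-25, which makes the protein active. The jy3 allele is a splice-site mutation that removes PALS-22 function, and jy9 is a missense loss-of-function change in PALS-25, so the double mutant lacks repressor and activator alike. *pals-22(jy3)* animals develop slowly and were grown for 48 h, the other genotypes for 44 h, so growth time and genotype cannot be told apart in any comparison with *pals-22(jy3)*. Each mutant genotype was 1 strain, and each library pooled a plate population of animals, so fewer cells of a type and less RNA per cell cannot be told apart.

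Values are given as CPM, that is counts scaled to a common library size by library total and a composition factor. Library totals ran from 14028579 to 34151410 counts, and clec genes took 0.501% to 1.03% of them. Both mutated genes were transcribed in every group, *pals-22* at 3.6 to 5.19 CPM in WT and 17 to 24.2 CPM in *pals-22(jy3)*, so their levels do not check for a lost transcript, which these alleles do not remove. All 9 intestinal and 8 epidermal markers looked up were expressed well enough to be tested in each comparison. In the double mutant, replicate 4 stood apart in cuticle and yolk genes, with *bli-1* at 7.63 CPM against 753 to 1868 CPM in the other 3 libraries of that genotype. The 37 sperm markers varied widely within groups, with a summed level of 472 to 1504 CPM in WT and 227 to 1347 CPM in *pals-22(jy3)*. The 14 oocyte and adult markers summed to 891 to 1577 CPM in WT, 1952 to 3596 CPM in *pals-22(jy3)* and 151.97 to 1188 CPM in the double mutant. Of these 14 markers, 2 were raised in *pals-22(jy3)* compared to WT, beside 9.97% of all genes. The median log2 fold change of the 14 was -0.16 there, so the higher sum does not stand for most of them. Compared to the double mutant 5 were raised in *pals-22(jy3)*, beside 11.3% of all genes. In the double mutant compared to WT 3 were lowered, beside 6.07% of all genes. The part of these markers in the clec results was not tested.

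In WT the family spanned a wide range of levels. Compared per length, in CPM per kilobase of the length used in counting, 11 of 240 genes had a WT median over 100, another 27 were between 10 and 100, 52 were between 1 and 10, and 79 lay above 0 and up to 1. The remaining 71 had a median of 0, and 31 genes had no count in any of the 16 libraries. The 5 highest per length were *clec-63* (1522 CPM per kb), *clec-50* (716), *clec-48* (369.5), *clec-150* (306) and *clec-83* (259). The summed level of all 240 genes was 4948 to 6709 CPM in WT, 5334 to 8950 CPM in *pals-25(jy111)*, 4960 to 10257 CPM in *pals-22(jy3)* and 5291 to 7291 CPM in the double mutant, with overlap between all groups. *clec-63* alone gave 26.7% to 33% of the summed clec CPM in WT and 43.1% to 51% in *pals-22(jy3)*. Its level was 1322, 2214, 2038 and 1959.7 CPM in the 4 WT libraries, 1814, 3581, 2350.1 and 2802 in *pals-25(jy111)*, 2136, 5228, 3421 and 4625 in *pals-22(jy3)* and 1925, 2835, 2484 and 1922 in the double mutant. The groups overlapped, and *clec-63* passed the test in *pals-22(jy3)* compared to WT alone (log2 fold change 0.93, SE 0.27, adjusted p = 0.0461 by edgeR), a call that limma-voom did not make. Its log2 fold change in *pals-25(jy111)* was 0.48 (adjusted p = 0.389 by edgeR, and 0.0166 with the replicate number as a block). *clec-50* had a log2 fold change of 0.34 in *pals-22(jy3)* compared to WT (adjusted p = 0.312 by edgeR, and 0.0222 with the block). *clec-48* and *clec-150* were lowered in *pals-22(jy3)* compared to WT, with -0.95 ± 0.27 and -0.62 ± 0.18 (log2 fold change ± SE; adjusted p = 0.0386 and 0.0389 by edgeR), and neither call held in every fit with 1 library left out.

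For each comparison, a gene was fitted where 4 or more of the 8 libraries reached 0.5 CPM, and a gene was called where its p-value from edgeR's quasi-likelihood test, adjusted over all genes tested, was under 0.05. Across the 5 comparisons 115 of 240 clec genes were tested at least once and 67 were called at least once, 58.3% of those tested, beside 5228 of 15180 genes (34.4%) over all genes. The genes tested in none stayed under this minimum. The plot of levels by library shows 12 of the named genes, chosen after their values were seen.

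**Figure D1:**
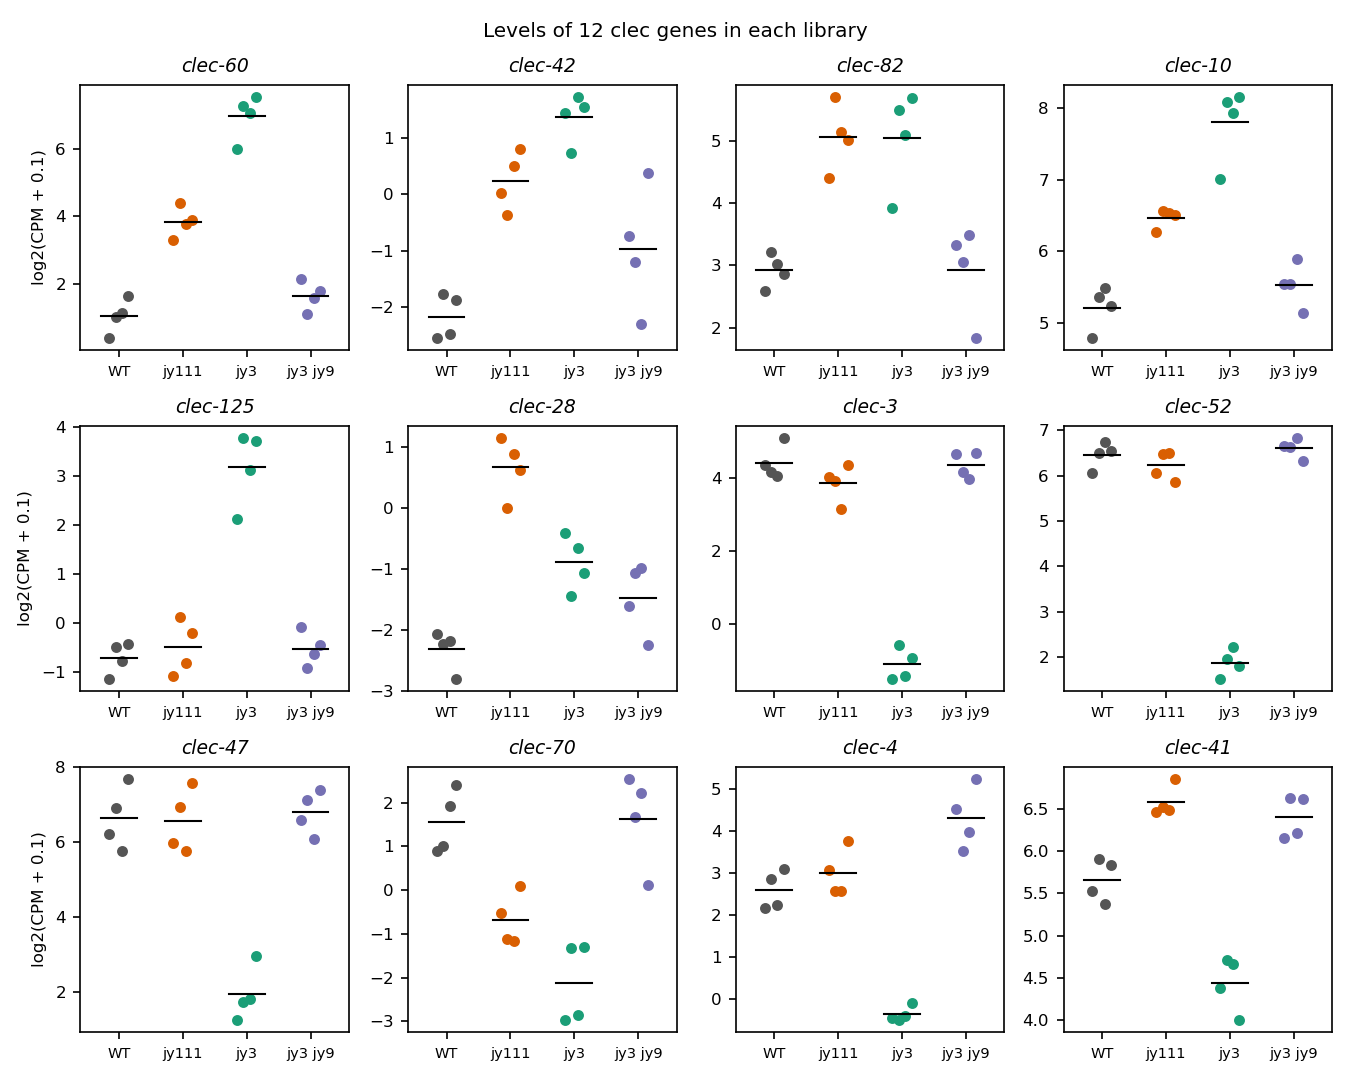
Level of 12 clec genes in each library, as log2(CPM + 0.1), by genotype (jy111, *pals-25(jy111)*; jy3, *pals-22(jy3)*; jy3 jy9, the double mutant), with points for the 4 libraries and a bar for their mean. The 4 *pals-22(jy3)* libraries of *clec-60* sit at 63.8 to 186 CPM, above every other library, and those of *clec-52* at 2.76 to 4.57 CPM, below every other library.

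To see which lectin genes respond to active PALS-25 while PALS-22 is intact, *pals-25(jy111)* animals were compared to WT. Of 112 clec genes tested, 13 were raised and 4 lowered, 11.6% and 3.57% of those tested, beside 2.33% raised and 1.41% lowered among all 14671 genes. With a fold threshold of 2 on the log2 scale, which the study used, 5 were raised and 2 lowered, where 1.17% and 0.0818% of all genes passed. The median log2 fold change was 0.09 over the clec genes tested and 0.02 over all genes tested. Of the 112 genes, 4 passed the filter on low counts through *pals-25(jy111)* alone, with at least 0.5 CPM in all 4 of its libraries and in 0 WT libraries, so these had to differ. They were *clec-28*, *clec-33*, *clec-42* and *clec-145*, and the first 3 are among the 13 raised.

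The genes with the largest fold changes lay side by side on chromosome V. *clec-33* was at 0.0704, 0, 0.121 and 0 CPM in the WT libraries and at 1.51, 0.589, 1.56 and 1.05 CPM in *pals-25(jy111)* (log2 fold change 4.55, SE 0.70). *clec-28*, its neighbour, was at 0.141, 0.115, 0.121 and 0.0433 CPM in WT and 2.14, 0.907, 1.75 and 1.45 CPM in *pals-25(jy111)* (log2 fold change 3.87, SE 0.41). Both passed the filter through *pals-25(jy111)* alone, from a WT level of 4 and 9 counts over the group, so no test is given for them and the size of these fold changes is loosely set. Further along, *clec-26* and *clec-36* were raised by 1.88 ± 0.24 and 1.72 ± 0.30 on the log2 scale (adjusted p = 0.00342 and 0.0161 by edgeR), and *clec-31*, which lies among them, was at 0.523 to 0.845 CPM in WT and 0.725 to 1.37 CPM in *pals-25(jy111)* (log2 fold change 0.54, adjusted p = 0.423 by edgeR).

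*clec-60*, a gene known to be induced by *Staphylococcus aureus* and *Microbacterium nematophilum*, was at 1.2, 1.92, 2.09 and 2.99 CPM in WT and 9.62, 21, 13.5 and 14.7 CPM in *pals-25(jy111)* (log2 fold change 2.82, SE 0.32, adjusted p = 0.00156 by edgeR). The 2 ranges were far apart. Its neighbour *clec-61* was at 1.06, 0.845, 0.604 and 1.04 CPM in WT and 2.77, 2.72, 3.0 and 2.78 CPM in *pals-25(jy111)* (log2 fold change 1.67, SE 0.21, adjusted p = 0.00324 by edgeR). *clec-42* had 12 counts over the WT group, at 0.0704, 0.192, 0.0805 and 0.173 CPM, and reached 0.911, 0.68, 1.32 and 1.65 CPM in *pals-25(jy111)*, through which alone it passed the filter (log2 fold change 3.03, SE 0.42). *clec-82* was at 5.92, 9.22, 8.05 and 7.15 CPM in WT and at 21, 52.1, 35 and 32.3 CPM in *pals-25(jy111)* (log2 fold change 2.19, SE 0.27, adjusted p = 0.00257 by edgeR). In *clec-60*, *clec-61* and *clec-82* every *pals-25(jy111)* library was above every WT library. Such absence of overlap held for 100% of the calls over all genes in this comparison, raised or lowered. The more abundant *clec-10*, *clec-41* and *clec-80* were raised by 1.23 ± 0.14, 0.90 ± 0.14 and 0.65 ± 0.12 on the log2 scale. *clec-54* and *clec-56*, neighbours on chromosome V named here after their values were seen, made up the 13, with 0.66 ± 0.14 and 0.43 ± 0.09.

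The 4 lowered genes were *clec-70*, *clec-247*, *clec-246* and *clec-218*. *clec-70*, another gene known from *S. aureus* infection, was at 1.76, 1.92, 3.7 and 5.16 CPM in WT and 0.597, 0.363, 0.35 and 0.967 CPM in *pals-25(jy111)* (log2 fold change -2.46, SE 0.46, adjusted p = 0.0247 by edgeR). *clec-247* was at 5.0, 2.88, 4.03 and 5.37 CPM in WT and 1.63, 0.68, 0.70 and 0.362 CPM in *pals-25(jy111)* (log2 fold change -2.32, SE 0.45, adjusted p = 0.0266 by edgeR). The groups did not overlap in either gene. *clec-246* and *clec-218* had smaller decreases, -1.17 ± 0.23 and -0.87 ± 0.13 (log2 fold change ± SE; adjusted p = 0.0288 and 0.00854 by edgeR). Leaving out single libraries kept 9 of the 13 raised calls in every fit and 0 of the 4 lowered ones. The 9 include *clec-28*, *clec-33* and *clec-42*, which had to differ. The count of lowered genes was 0 without WT replicate 3, 1 without WT replicate 4, and 2 when WT replicate 1 or any of *pals-25(jy111)* replicates 1, 2 and 3 was left out. Same-numbered libraries of these genotypes deviated together, but so did some with different numbers, such as *pals-25(jy111)* replicate 4 and WT replicate 2. With the replicate number as a block 25 clec genes were raised and 10 lowered, beside 5.17% and 4.61% of all genes, with all 17 calls among them.

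Loss of *pals-22* was compared to WT next. Of 109 clec genes tested in *pals-22(jy3)*, 15 were raised and 31 lowered, 13.8% and 28.4% of those tested, where 9.97% of all 14803 genes were raised and 11.3% lowered. At the log2 threshold of 2 the counts were 6 raised and 17 lowered, beside 3.1% and 0.898% of all genes. The median log2 fold change was -0.35 over the clec genes tested and -0.09 over all genes tested. Size factors by DESeq2's method moved the split of all genes to 1845 raised and 1276 lowered, and that of the clec genes to 15 and 29. Of the 109 genes, *clec-2*, *clec-70*, *clec-71*, *clec-174* and *clec-185* passed the filter through WT alone and *clec-42* through *pals-22(jy3)* alone. These had to differ, and their values are given without a test. *clec-89* and *clec-172* were borderline. They reached at most 0.499 CPM in *pals-22(jy3)* as scaled here, while the filter used library totals without the composition factor. Same-numbered libraries of these groups deviated together too. So did some with different numbers, such as *pals-22(jy3)* replicate 4 and WT replicate 2. With the replicate number as a block 22 clec genes were raised and 39 lowered, beside 14.4% and 20.4% of all genes. The map of fold changes sets the genes with the largest changes side by side over the 5 comparisons.

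**Figure D2:**
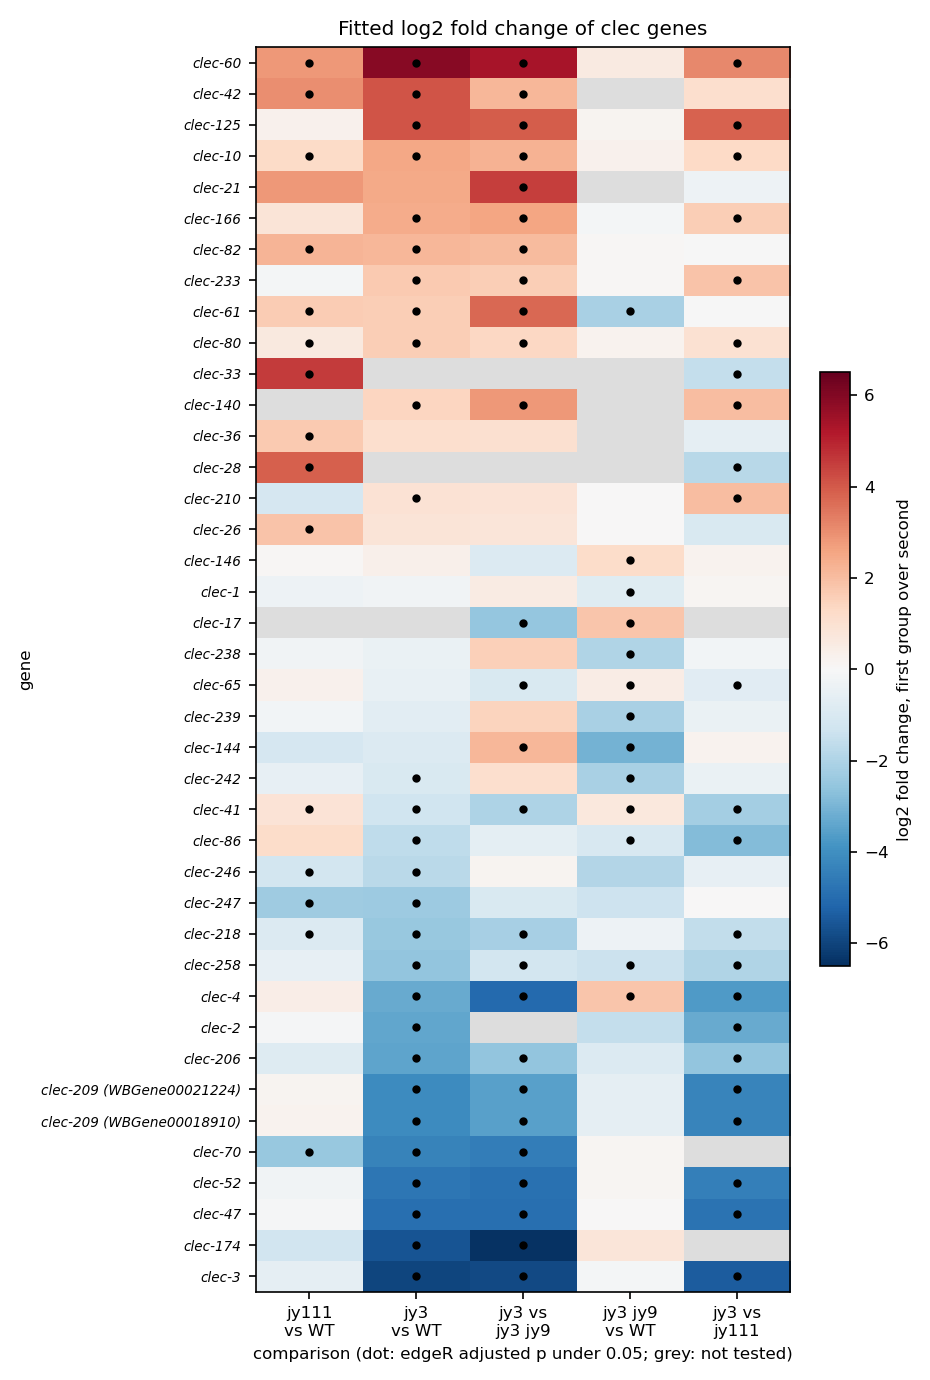
Fitted log2 fold change (colour, first group over second) of the clec genes with the largest changes in any of the 5 comparisons (columns), ordered by the change in *pals-22(jy3)* compared to WT, or by the mean of the other comparisons where that was not tested; dots mark adjusted p under 0.05 by edgeR and grey marks genes not tested. The jy3 columns hold a block of raised genes from *clec-60* (5.89 against WT) at the top and a block of lowered genes down to *clec-3* (-5.96) at the bottom. The jy3 jy9 column is paler in both blocks, with exceptions such as *clec-61* (-2.12) and *clec-4* (1.80), and *clec-242* and *clec-258*, which were lowered there as well.

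*clec-60* changed most among the raised genes. Its level in *pals-22(jy3)* was 63.8, 154, 134 and 186 CPM, against 1.2 to 2.99 CPM in WT (log2 fold change 5.89, SE 0.40, adjusted p = 2.64e-05 by edgeR). *clec-125* was at 0.352, 0.615, 0.483 and 0.65 CPM in WT and 4.26, 13.7, 8.6 and 13.1 CPM in *pals-22(jy3)* (log2 fold change 4.09, SE 0.41, adjusted p = 2.47e-04 by edgeR). In both genes replicate 1 of *pals-22(jy3)* was the lowest of its group and still above every WT library. *clec-42* was at 2.62, 1.56, 3.22 and 2.82 CPM in *pals-22(jy3)* (log2 fold change 4.10, SE 0.39). *clec-10* went from 37.7 ± 7.4 to 234 ± 71.5 CPM (SD, n = 4; log2 fold change 2.52, adjusted p = 2.76e-04 by edgeR). *clec-166* went from 5.24 ± 0.414 to 30.2 ± 4.86 CPM (SD, n = 4; log2 fold change 2.43, adjusted p = 1.09e-05 by edgeR). *clec-82* rose from 7.58 ± 1.4 to 36.4 ± 16 CPM and *clec-80* from 65.3 ± 10.2 to 214 ± 51.6 CPM (SD, n = 4; log2 fold changes 2.15 and 1.61). *clec-233* and *clec-61* rose by 1.71 ± 0.36 and 1.62 ± 0.32 on the log2 scale, and *clec-210* by 0.93 ± 0.27 with overlapping libraries. *clec-140* rose by 1.38 ± 0.28, but it overlaps the abundant *hmg-11* on the same strand, so its counts are uncertain.

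Most clec genes that changed in *pals-22(jy3)* were lowered, several of them from high WT levels. *clec-52*, known from *S. aureus* infection, was at 67, 89.8, 107 and 92.8 CPM in WT and 2.76, 3.81, 4.57 and 3.43 CPM in *pals-22(jy3)* (log2 fold change -4.72, SE 0.21, adjusted p = 2.03e-06 by edgeR). *clec-47* was at 74.5, 120.4, 54.2 and 206 CPM in WT and 2.27, 3.24, 3.42 and 7.69 CPM in *pals-22(jy3)* (log2 fold change -4.90, SE 0.56, adjusted p = 5.17e-04 by edgeR). *clec-3* was at 20.4, 17.7, 16.5 and 34.3 CPM in WT and 0.246, 0.57, 0.269 and 0.419 CPM in *pals-22(jy3)* (log2 fold change -5.96, SE 0.37, adjusted p = 1.43e-05 by edgeR). *clec-3* overlaps a protein-coding gene on the other strand. In these 3 genes no library of one genotype reached the range of the other. The 2 genes named *clec-209* on chromosome V, WBGene00018910 and WBGene00021224, went from 161 ± 54.9 and 57.2 ± 17.4 CPM in WT to 9.8 ± 6.52 and 3.51 ± 2.42 CPM (SD, n = 4), log2 fold changes of -4.11 and -4.08. The sources used here do not say how reads were divided over IDs that share a symbol, so each copy on its own is uncertain. *clec-174* had 0.0819, 0, 0.0384 and 0 CPM in *pals-22(jy3)*, 4 counts over the group, and 3.38, 0.615, 1.97 and 1.13 CPM in WT (log2 fold change -5.63, SE 0.85).

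*clec-70* was at 0.0273, 0.30, 0.0384 and 0.305 CPM in *pals-22(jy3)*, beside 1.76 to 5.16 CPM in WT (log2 fold change -4.32, SE 0.70). *clec-206* was at 2.47 to 8.49 CPM in WT and at 0.114 to 0.729 CPM in *pals-22(jy3)*, and *clec-4*, which responds to bacterial infection of the gut, at 4.37 to 8.41 CPM in WT and 0.60 to 0.838 CPM in *pals-22(jy3)* (log2 fold changes -3.45 and -3.27, adjusted p = 0.00359 and 9.38e-05 by edgeR). *clec-2*, the neighbour of *clec-3*, was at 0.564 to 1.47 CPM in WT and 0.0546 to 0.114 CPM in *pals-22(jy3)* (log2 fold change -3.38, SE 0.45). *clec-258* and *clec-218* were lowered too, with log2 fold changes of -2.55 ± 0.21 and -2.49 ± 0.17. *clec-186*, named here after its values were seen, varied little within groups, at 113.3, 118, 124 and 119 CPM in WT and 16.2, 22, 21.6 and 15.9 CPM in *pals-22(jy3)* (log2 fold change -2.74, SE 0.12, adjusted p = 2.39e-06 by edgeR). Beside *clec-247* and *clec-246*, which were also lowered here (-2.35 ± 0.37 and -1.73 ± 0.29), *clec-41* and *clec-85* were lowered, at -1.31 ± 0.19 and -1.57 ± 0.25. Leaving out single libraries kept 12 of the 15 raised and 26 of the 31 lowered calls in every fit. The 12 include *clec-42*, and the 26 include *clec-2*, *clec-70*, *clec-71*, *clec-174* and *clec-185*, all of which had to differ. *pals-22(jy3)* replicate 1 had the lowest level of its group in 10 of the 15 raised genes. Among the 31 lowered genes it was the lowest in 14 and the highest in 7. Without this library 23 clec genes were raised and 36 lowered, beside 17.2% and 13.3% of all genes.

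Setting *pals-22(jy3)* against *pals-22(jy3) pals-25(jy9)* compares animals that lack PALS-22 and differ in whether PALS-25 works. Of 108 clec genes tested, 14 were higher and 29 lower with PALS-25 than without it, 13% and 26.9% of those tested, beside 11.3% and 11.1% of all 14878 genes. At the log2 threshold of 2 there were 10 and 18 clec genes, where 3.19% and 0.921% of all genes passed. The median log2 fold change was -0.28 over the clec genes tested and -0.09 over all genes tested. With DESeq2's size factors 2028 of all genes were higher and 1182 lower, and 16 and 26 of the clec genes. This comparison and that with WT share the *pals-22(jy3)* libraries, so that they are not independent. Of the 108 genes, *clec-21*, *clec-61* and *clec-140* passed the filter through *pals-22(jy3)* alone. Through the double mutant alone passed *clec-17*, *clec-70*, *clec-71*, *clec-174* and *clec-185*. All of these had to differ, and their values are given without a test. *clec-89* and *clec-172* were borderline, as in the comparison with WT.

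The double mutant had *clec-60* at 4.26, 2.05, 2.87 and 3.31 CPM, against 63.8 to 186 CPM in *pals-22(jy3)* (log2 fold change 5.34, SE 0.38, adjusted p = 4.85e-05 by edgeR). *clec-125* was at 0.844, 0.429, 0.546 and 0.639 CPM and *clec-166* at 5.64, 4.19, 6.62 and 3.16 CPM in the double mutant, with log2 fold changes of 3.92 ± 0.41 and 2.55 ± 0.25 for *pals-22(jy3)* over it. *clec-10* was at 46.4, 46.6, 59.6 and 35.1 CPM in the double mutant (log2 fold change 2.24, adjusted p = 7.36e-04 by edgeR). In each of these 4 genes the double mutant libraries overlapped those of WT. *clec-21*, which passed the filter through *pals-22(jy3)* alone, was at 0.0767, 0, 0.0683 and 0.0752 CPM in the double mutant, 6 counts over the group. In *pals-22(jy3)* it was at 2.38, 0.90, 1.92 and 0.495 CPM (log2 fold change 4.47, SE 0.73). *clec-61* was at 0.345, 0.191, 0.239 and 0.0376 CPM in the double mutant, and at 1.87 to 4.34 CPM in *pals-22(jy3)* (log2 fold change 3.74, SE 0.52). *clec-42*, *clec-82* and *clec-80* were higher in *pals-22(jy3)* by 2.18 ± 0.60, 2.07 ± 0.45 and 1.37 ± 0.28.

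Among the lowered genes, *clec-3* was at 25, 17.6, 15.5 and 25.7 CPM in the double mutant against 0.246 to 0.57 CPM in *pals-22(jy3)* (log2 fold change -5.85, SE 0.32, adjusted p = 9.35e-06 by edgeR). *clec-52* was at 101, 98.6, 114 and 79.4 CPM in the double mutant (log2 fold change -4.83, SE 0.19, adjusted p = 1.60e-06 by edgeR). *clec-47* was at 96.2, 138, 67.7 and 168 CPM there (log2 fold change -4.91, SE 0.47, adjusted p = 2.48e-04 by edgeR). In all 3 the double mutant libraries overlapped those of WT. *clec-4* was at 22.8, 11.3, 15.6 and 37.7 CPM in the double mutant, above each of the 4 WT libraries, so that its log2 fold change in *pals-22(jy3)* was -5.07 ± 0.42 against the double mutant and -3.27 ± 0.28 against WT. The 2 *clec-209* copies were lower in *pals-22(jy3)* than in the double mutant, at -3.52 ± 0.46 and -3.51 ± 0.46 (log2 fold change ± SE). In the double mutant *clec-174* was at 1.14 to 6.06 CPM and *clec-70* at 0.977 to 5.75 CPM, with log2 fold changes of -6.42 ± 0.85 and -4.48 ± 0.80. *clec-258* was at 21.6, 17.7, 22.1 and 24.6 CPM in the double mutant, between *pals-22(jy3)* at 6.58 to 13 and WT at 47.9 to 67.2 CPM. Without double mutant replicate 4 the counts were 15 and 26, beside 11.7% and 11.4% of all genes. Without *pals-22(jy3)* replicate 1 they were 22 and 35, beside 17.2% and 17.3% of all genes. In every fit with 1 library left out 10 of the 14 higher and 20 of the 29 lower calls held. The 10 include *clec-21*, *clec-61* and *clec-140*, and the 20 include *clec-17*, *clec-70*, *clec-174* and *clec-185*, all of which had to differ.

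Loss of both genes left fewer changes compared to WT. Of 107 clec genes tested in *pals-22(jy3) pals-25(jy9)*, 5 were raised and 9 lowered, 4.67% and 8.41% of those tested, beside 2.61% and 6.07% of all 14551 genes. At the log2 threshold of 2 the counts were 0 raised and 4 lowered, where 0.144% and 0.763% of all genes passed. An unadjusted p under 0.05 was reached by 17 raised and 22 lowered clec genes at any fold, beside 12.8% and 15.3% of all genes, and DESeq2 called 9 and 16 at an adjusted p under 0.05, beside 8.1% and 10.7% of all genes. Of the 107 genes, *clec-17* passed the filter through the double mutant alone and *clec-2* and *clec-61* through WT alone, so that these 3 had to differ. The raised genes were *clec-4* (1.80 ± 0.40), *clec-17* (1.81 ± 0.42), *clec-146* (1.20 ± 0.30), *clec-41* (0.71 ± 0.17) and *clec-65* (0.48 ± 0.10), as log2 fold change ± SE. *clec-17* was at 0.0704, 0.154, 0.242 and 0.39 CPM in WT and 0.729, 0.524, 0.888 and 1.09 CPM in the double mutant. Both ranges were low.

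Of the 9 lowered genes *clec-144* had the largest decrease, from 4.44, 1.65, 1.85 and 2.34 CPM in WT to 0.537, 0.0477, 0.341 and 0.263 CPM in the double mutant (log2 fold change -3.07, SE 0.54, adjusted p = 0.0166 by edgeR). *clec-61*, *clec-239*, *clec-242* and *clec-238* were lowered with log2 fold changes of -2.12 ± 0.45, -2.10 ± 0.52, -2.08 ± 0.53 and -1.97 ± 0.43, and *clec-258*, *clec-86*, *clec-1* and *clec-83* with -1.38 ± 0.15, -1.03 ± 0.24, -0.80 ± 0.12 and -0.37 ± 0.09. *clec-1* was at 149.5, 146, 156 and 135 CPM in WT and 75.7, 81.9, 111.1 and 75.5 CPM in the double mutant, without overlap (adjusted p = 0.011 by edgeR). The calls for *clec-1* and *clec-258* were the 2 of these 14 that held in every fit with 1 library left out. Leaving out single libraries gave 0 to 5 raised and 2 to 10 lowered genes, with 0 raised and 3 lowered without WT replicate 3 or without double mutant replicate 3. Without WT replicates 1, 2 or 4 there was 1 raised, with 5, 5 and 2 lowered, without double mutant replicate 2 there were 1 and 4, and without double mutant replicate 4 there were 3 and 9.

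The 2 genotypes with active PALS-25 were compared directly. Of 107 clec genes tested, *pals-22(jy3)* animals had 8 higher and 27 lower than *pals-25(jy111)* animals, 7.48% and 25.2% of those tested, beside 7.48% and 6.11% of all 14847 genes. At the log2 threshold of 2 there were 4 and 13, where 1.91% and 0.653% of all genes passed. Of the 107 genes, *clec-140* passed the filter through *pals-22(jy3)* alone and *clec-2* through *pals-25(jy111)* alone, so that both had to differ. *clec-89* and *clec-172* were borderline here too. DESeq2's size factors gave 1265 higher and 758 lower among all genes and 8 and 25 among the clec genes. Same-numbered libraries deviated together here as well, and so did some with different numbers, such as *pals-22(jy3)* replicate 4 and *pals-25(jy111)* replicate 2. With the replicate number as a block 20 clec genes were higher and 46 lower, beside 18.3% and 29.2% of all genes, and the 35 calls were among them.

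Most of the genes that differed were lower in *pals-22(jy3)*. *clec-3* was at 16.1, 15, 8.79 and 20.5 CPM in *pals-25(jy111)*, and *clec-52* at 66.7, 88.6, 90 and 58.2 CPM, so that the log2 fold change between the mutants was -5.38 ± 0.37 and -4.46 ± 0.22 (adjusted p = 8.00e-05 and 1.56e-05 by edgeR). It was -4.79 ± 0.57 for *clec-47*, -4.32 ± 0.48 and -4.27 ± 0.46 for the *clec-209* copies, and -3.68 ± 0.33 for *clec-4*. In each of these genes every *pals-22(jy3)* library was below every *pals-25(jy111)* library. *clec-2* was at 0.506 to 1.01 CPM in *pals-25(jy111)*, a log2 fold change of -3.27 ± 0.34. *clec-41* moved in opposite directions from WT: it was at 46.2, 59.9, 41.4 and 57.1 CPM in WT, 88.4, 91.4, 89.6 and 116 CPM in *pals-25(jy111)* and 20.8, 26.2, 25.3 and 15.9 CPM in *pals-22(jy3)* (log2 fold change between the mutants -2.20, SE 0.18, adjusted p = 1.64e-04 by edgeR). *clec-86*, known from *M. nematophilum* infection, was at 6.62, 3.88, 5.15 and 4.46 CPM in WT, 16.9, 6.62, 14.5 and 7.17 CPM in *pals-25(jy111)* and 1.78, 1.47, 2.84 and 0.571 CPM in *pals-22(jy3)*, and the log2 fold change between the mutants was -2.82 ± 0.51 (adjusted p = 0.00997 by edgeR). It overlaps *alh-10* on the other strand, and use of strand in counting was not stated.

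*clec-28* was at 0.656, 0.27, 0.537 and 0.381 CPM in *pals-22(jy3)*, between WT and *pals-25(jy111)*, and lower than in the latter, with a log2 fold change of -1.81 ± 0.36 (adjusted p = 0.0153 by edgeR). *clec-33* showed the same order, at 0.628, 0.27, 0.422 and 0.343 CPM in *pals-22(jy3)* (log2 fold change -1.55, adjusted p = 0.0361 by edgeR), with overlapping libraries. In the other direction, *clec-125* was at 0.377, 0.997, 0.467 and 0.765 CPM in *pals-25(jy111)*, overlapping the WT libraries, and *pals-22(jy3)* was higher by 3.85 ± 0.47 (adjusted p = 0.00148 by edgeR). *clec-60* was higher in *pals-22(jy3)* than in *pals-25(jy111)* by 3.10 ± 0.37, *clec-210* by 2.02 ± 0.29, *clec-140* by 2.0 ± 0.26, *clec-233* by 1.85 ± 0.50, *clec-166* by 1.62 ± 0.22, *clec-10* by 1.31 ± 0.22 and *clec-80* by 0.98 ± 0.18. For *clec-82* and *clec-61*, raised in both genotypes, the difference between the mutants was -0.04 ± 0.39 and -0.03 ± 0.27, with adjusted p = 0.958 and 0.953 by edgeR.

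*pals-25(jy111)* compared to WT and *pals-22(jy3)* compared to the double mutant share no library, and each sets a genotype with active PALS-25 against one in which it is repressed or lost. Of 106 clec genes tested in both, 6 were raised in both, which was 54.5% of the 11 raised in *pals-25(jy111)* and 46.2% of the 13 raised in *pals-22(jy3)* in this comparison. Over all 14450 genes tested in both, 269 were raised in both, 80.5% of 334 and 17.8% of 1513. The 6 were *clec-10*, *clec-42*, *clec-60*, *clec-61*, *clec-80* and *clec-82*. Side by side, their log2 fold changes were 1.23 and 2.24 for *clec-10*, 3.03 and 2.18 for *clec-42*, 2.82 and 5.34 for *clec-60*, 1.67 and 3.74 for *clec-61*, 0.65 and 1.37 for *clec-80* and 2.19 and 2.07 for *clec-82*. *clec-42* in the first comparison and *clec-61* in the second had passed the filter through the raised group alone. *clec-82* overlaps another gene on its own strand, so its counts are uncertain. Among lowered genes, *clec-70* and *clec-218* were lowered in both, 50% of the 4 in *pals-25(jy111)* and 7.14% of the 28 in *pals-22(jy3)*, where over all genes 30 were, 14.8% of 203 and 1.84% of 1634. In the second comparison *clec-70* had passed the filter through the double mutant alone. *clec-41* was the 1 gene raised in the first comparison and lowered in the second.

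**Figure D3:**
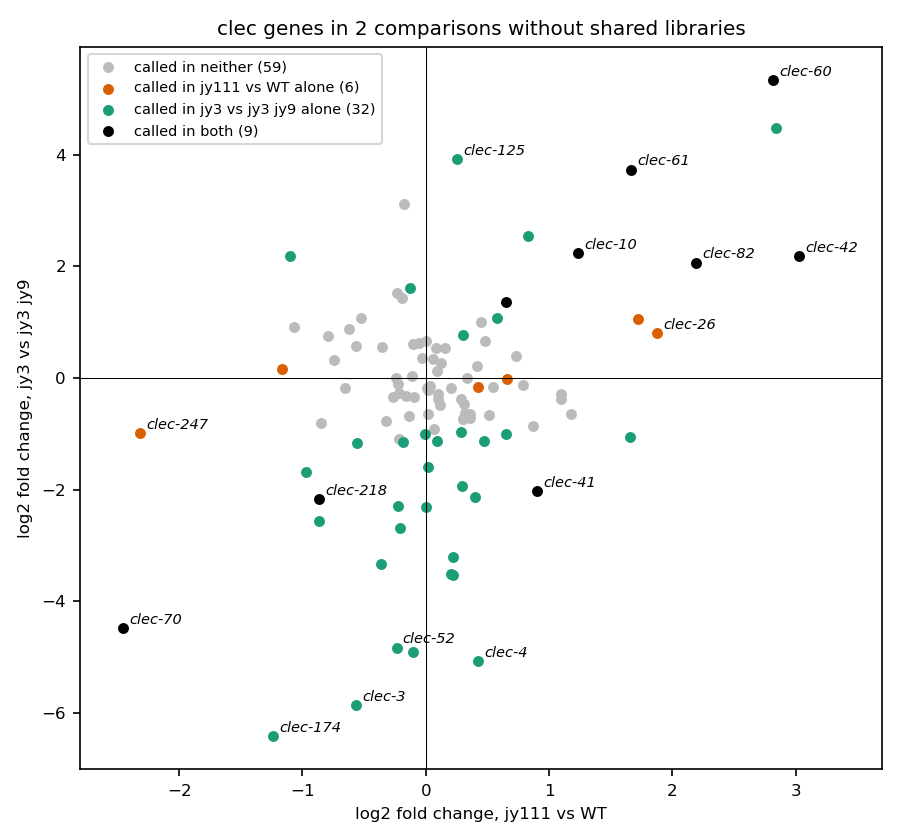
Log2 fold change of the 106 clec genes tested in both comparisons, *pals-25(jy111)* over WT on the x axis and *pals-22(jy3)* over the double mutant on the y axis, 1 point a gene, coloured by which of both tests called it. The 6 genes raised in both lie at the upper right with *clec-60* at 2.82 and 5.34, while most genes lowered on the y axis, such as *clec-52* at -4.83, lie near 0 on the x axis.

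The family is clustered in the genome. With neighbours at most 20 kb apart counted as 1 run, 164 of the 240 genes fell into 49 runs of 2 to 13 genes, and 76 lay alone (positions of the WBcel235 annotation). Chromosome V held 86 members, IV 53, II 48, I 36, III 14 and X 3. All 13 genes raised in *pals-25(jy111)* were on chromosomes II (3), IV (2) and V (8). These 3 chromosomes also held most members tested in any comparison, 26, 32 and 41, against 7 on I, 7 on III and 2 on X. In 4 runs, at least 1 gene was raised and at least 1 lowered in *pals-22(jy3)* compared to WT. Genes of a run can share reads where their sequences are alike, and the sources used here do not say how such reads were counted.

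The longest run, chrV:16839121-16869840, held 13 clec genes of which 5 were tested. *clec-26*, *clec-28*, *clec-33* and *clec-36* were raised in *pals-25(jy111)*. In *pals-22(jy3)* compared to WT *clec-26* and *clec-36* had log2 fold changes of 0.85 ± 0.33 and 1.11 ± 0.38, neither past the test, and *clec-28* and *clec-33* were too low to be tested. On chromosome IV, the run chrIV:2823746-2855456 held *clec-80*, *clec-82*, *clec-83*, *clec-84* and *clec-85*. *clec-80* and *clec-82* were raised in both mutants with active PALS-25, *clec-85* was lowered in *pals-22(jy3)*, and *clec-83* and *clec-84* between them did not pass the test there, at 215 to 264 and 126 to 158 CPM in WT and 205 to 305 and 90.3 to 172 CPM in *pals-22(jy3)*. Direction thus differed within this run. *clec-82* and *clec-83* both overlap another gene in the annotation, Y54G2A.7. That gene lies on the same strand as *clec-82*, so the counts of *clec-82* are uncertain.

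At chrII:12893062-12906644, a run named here after its values were seen, *clec-62*, *clec-63*, *clec-64*, *clec-65* and *clec-66* stand in that order. *clec-62* was at 48.6, 81.7, 67.9 and 68.7 CPM in WT and 93.2, 293, 171 and 237 CPM in *pals-22(jy3)* (log2 fold change 1.46, SE 0.32, adjusted p = 0.0136 by edgeR). *clec-66*, at the other end, was at 47.8, 54.1, 47.9 and 59.7 CPM in WT and 10.2, 18.5, 15 and 12.7 CPM in *pals-22(jy3)* (log2 fold change -1.99, SE 0.18, adjusted p = 1.11e-04 by edgeR). The order of the genes was also the order of their changes in *pals-22(jy3)* compared to WT, from 1.46 for *clec-62* over 0.93, 0.04 and -0.48 to -1.99 for *clec-66*, of which *clec-64* and *clec-65* did not pass the test (with the replicate block *clec-65* did, at -0.51). The 4 libraries of *pals-25(jy111)* had *clec-66* at 46.9 to 61.6 CPM, overlapping the WT libraries.

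The run chrIV:3922165-4014235 held 12 clec genes, of which 10 were tested. *clec-70*, *clec-71* and *clec-174*, which follow each other, were lowered in *pals-22(jy3)* compared to WT (-4.32 ± 0.70, -2.04 ± 0.39 and -5.63 ± 0.85). Against the double mutant *clec-67* and *clec-72* on either side were lowered as well (-1.12 ± 0.30 and -1.01 ± 0.30). *clec-73*, *clec-74*, *clec-76*, *clec-78* and *clec-79* did not pass the test in any comparison without the replicate block, and *clec-76* was at 3.24, 2.11, 1.77 and 6.33 CPM in WT and 10.5, 4.59, 4.99 and 23.5 CPM in *pals-22(jy3)*. Replicate 4 was the highest in both genotypes, and with the block *clec-76* passed the test (log2 fold change 1.47), as did *clec-73* (-0.78). At chrV:18186063-18194168, *clec-42* was raised in *pals-25(jy111)* and *pals-22(jy3)*, and *clec-245* and *clec-246* next to it were lowered in *pals-22(jy3)* (-1.79 ± 0.32 and -1.73 ± 0.29). The pair *clec-2* and *clec-3* at chrII:3017468-3023431 was lowered in *pals-22(jy3)*. *clec-60* and *clec-61* lie in chrII:10468202-10490537 with *clec-143*, which was at 1.96 to 3.08 CPM in WT and 2.54 to 4.95 CPM in *pals-22(jy3)* and passed no test without the block. The neighbours *clec-238* and *clec-239*, at chrV:16951804-16958077, were called in the double mutant compared to WT alone.

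**Figure D4:**
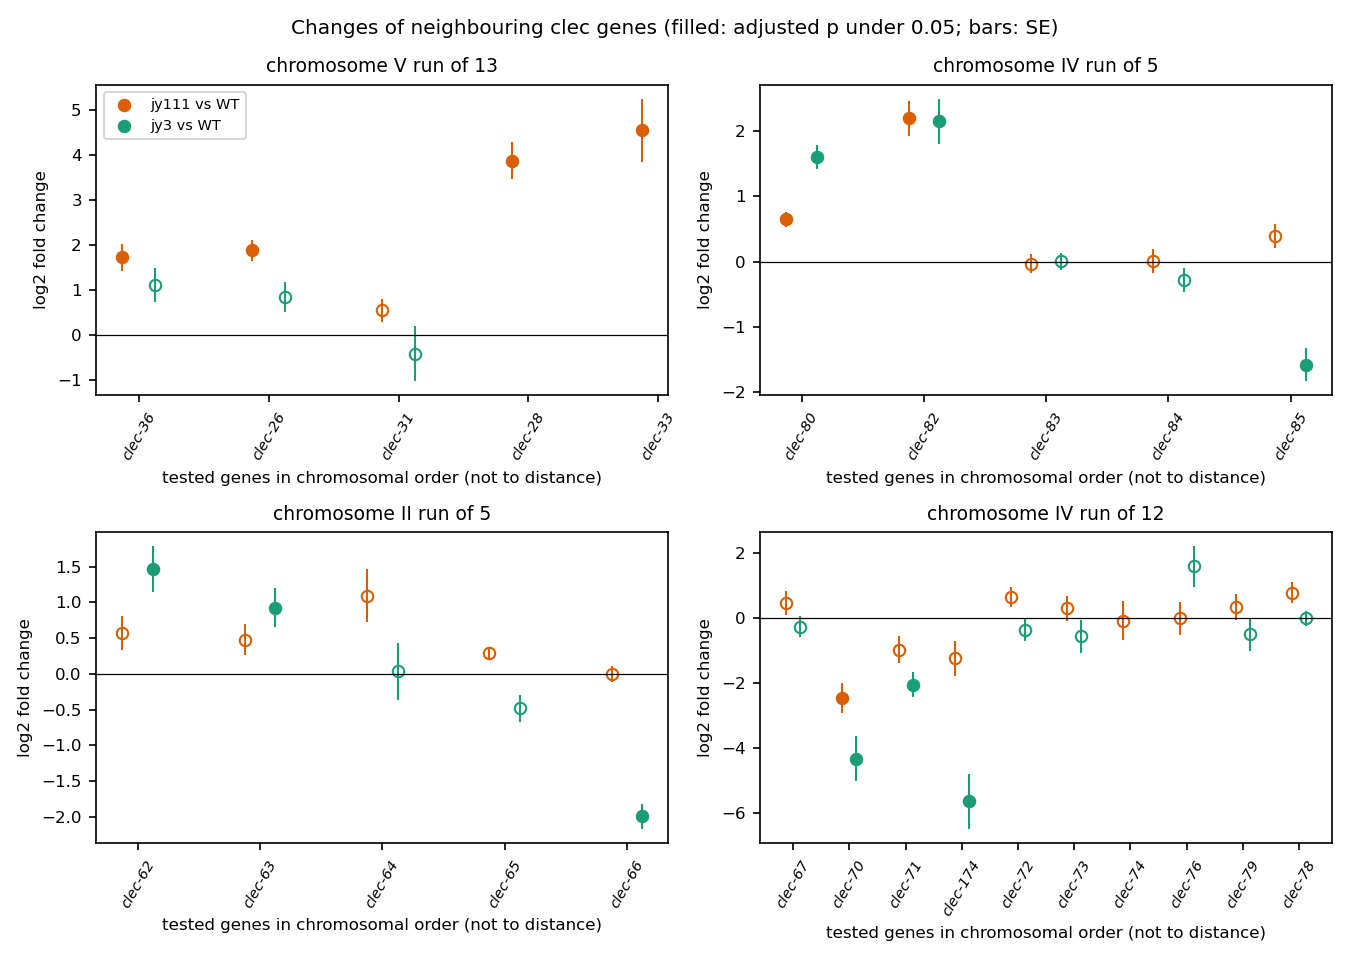
Log2 fold change compared to WT of the tested clec genes in 4 chromosomal runs, in chromosomal order, for *pals-25(jy111)* (jy111) and *pals-22(jy3)* (jy3), with bars for the SE and filled points for adjusted p under 0.05 by edgeR. In the chromosome II run the *pals-22(jy3)* points step down from *clec-62* at 1.46 to *clec-66* at -1.99, and in the chromosome V run the filled points are those of *pals-25(jy111)*, up to 4.55 for *clec-33*.

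A list of 15 clec genes with a known link to bacterial pathogens was counted on its own. In *pals-25(jy111)* compared to WT, 4 of 13 tested were raised (*clec-41*, *clec-42*, *clec-60* and *clec-61*) and 1 was lowered (*clec-70*), beside 13 and 4 of 112 over the family and 2.33% and 1.41% of all genes. *clec-42* passed the filter there through *pals-25(jy111)* alone. In *pals-22(jy3)* compared to WT, 3 of 13 were raised (*clec-42*, *clec-60* and *clec-61*) and 7 were lowered (*clec-4*, *clec-41*, *clec-52*, *clec-70*, *clec-71*, *clec-85* and *clec-86*), with a median log2 fold change of -1.31 beside -0.09 over all genes, of which 9.97% were raised and 11.3% lowered. Against the double mutant, *pals-22(jy3)* had 3 of 14 higher and 9 lower, beside 11.3% and 11.1% of all genes. *clec-42*, *clec-70* and *clec-71* in the comparison with WT, and *clec-17*, *clec-61*, *clec-70* and *clec-71* in that with the double mutant, passed the filter through 1 group alone. *clec-85*, a known target of the p38 MAP kinase pathway, was at 21.1, 31.7, 24.6 and 28 CPM in WT and 6.58, 14.1, 10.2 and 7.16 CPM in *pals-22(jy3)* (log2 fold change -1.57, SE 0.25, adjusted p = 0.00299 by edgeR). *clec-67*, another gene of that pathway's known output, was at 24.9, 57, 33.2 and 49.8 CPM in WT and 21.3, 50.9, 30.3 and 46.7 CPM in *pals-22(jy3)*, with overlapping ranges (log2 fold change -0.26, adjusted p = 0.621 by edgeR, and 0.0118 with the block). *clec-7* was at 0.634, 0.999, 1.01 and 0.693 CPM in WT and 1.92, 1.77, 2.14 and 4.95 CPM in *pals-25(jy111)*, with replicate 4 far above the others. It did not pass the test there (log2 fold change 1.66, adjusted p = 0.0562 by edgeR) and did with the replicate block (1.58), as did *clec-86* (1.18 and, with the block, 1.09), *clec-67* (0.47 and 0.42) and *clec-85* (0.40 and 0.39). *clec-49*, which with *clec-39* is known from *Serratia marcescens* infection, was at 81.6 to 114.7 CPM in WT and 76 to 163 CPM in *pals-22(jy3)*, and *clec-39* had 1 to 11 counts over the 4 libraries of a group and was not tested.

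Other gene groups of intestinal defence were counted for comparison. Among all genes, 9.97% were raised and 11.3% lowered in *pals-22(jy3)* compared to WT, and 2.33% were raised in *pals-25(jy111)* compared to WT. Galectins are a separate family of sugar-binding proteins, and in *pals-22(jy3)* compared to WT 2 of 12 were raised and 2 lowered, with *lec-7* (1.18) and *lec-6* (-0.89) the largest log2 fold changes among the 4. Lysozymes cleave bacterial cell walls. Of 16 lysozyme genes 10 were tested, and 1 was raised and 5 lowered in *pals-22(jy3)* compared to WT, with *ilys-5* (-2.97) and *lys-2* (-2.75) lowered most, and in *pals-25(jy111)* *lys-7* was raised (1.99). The summed lysozyme level was 2249 to 3257 CPM in WT and 819 to 1432 CPM in *pals-22(jy3)*, without overlap. Of 6 genes of the p38 MAP kinase pathway, *vhp-1*, a phosphatase that opposes the kinases, was raised (0.43) and *sek-1*, a kinase, lowered (-0.40) in *pals-22(jy3)* compared to WT. Of 9 intestinal markers, *elt-2* and *ifb-2* were raised and *ges-1* and *cpr-6* lowered in *pals-22(jy3)* compared to WT, and the sum of the 9 was 10418 to 14265 CPM in WT and 7914 to 14406 CPM in *pals-22(jy3)*. Of 10 molting genes, 2 were lowered in it, with a sum of 3149 to 5838 CPM in WT and 2959 to 5198 CPM in *pals-22(jy3)*. Of 8 epidermal markers, 1 was lowered in it, and their sum was 3815 to 4557 CPM in WT and 3051 to 3776 CPM in *pals-22(jy3)*, without overlap. The part of any of these groups in the clec changes was not tested.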

How the data were processed

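RNA was sequenced from 16 libraries, 4 for each of 4 genotypes, prepared with a stranded mRNA kit. The authors aligned reads to the WS235 genome with Rsubread, counted them per gene with featureCounts, and deposited raw counts. The use of strand and the handling of multi-mapping reads were not given in the sources used here. The single files and the combined table held identical counts, and 0 entries named no gene. The lowest chi-square per gene between replicates was 11.5 over 24 pairs, so no library was a copy of another.

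Each comparison was fitted on its 8 libraries with edgeR 4.0.16 in R 4.3.3: a minimum of 0.5 CPM in 4 or more libraries, TMM factors, the quasi-likelihood test, and Benjamini-Hochberg adjustment over all genes tested, with a call at adjusted p under 0.05. The study itself used limma-voom. CPM were scaled by TMM factors over all 16 libraries. Alternatives were limma-voom (limma 3.58.1), DESeq2 1.42.0 and its size factors, other filters, 1 fit over 16 libraries, fold thresholds, a replicate block and leaving out each library. The edgeR fit was tested on simulated data, and the other tools were not. Gene positions came from the WBcel235 annotation.

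Named genes were, in each comparison, up to 8 raised and 8 lowered clec genes with the largest change among calls without overlap between groups, the 5 highest in WT per length, 15 pathogen-linked clec genes, and tested genes in a chromosomal run with at least 2 of the first kind. Members and lists were chosen with earlier results of these data known.

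Same-numbered libraries were taken as paired where the correlations of their deviations from the group means were all over 0.1. That held for *pals-25(jy111)* and WT (0.17 to 0.87), *pals-22(jy3)* and WT (0.21 to 0.86) and *pals-22(jy3)* and *pals-25(jy111)* (0.51 to 0.90). The pairing comes from these correlations, since the labels give the numbers and no shared day or batch.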

Additional observations from a re-analysis of the deposited data

Results flagged for a closer look

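In each genotype the 4 libraries of each gene named were searched for 1 that stood apart from the other 3, which chance alone does in about 1 in 20 groups, and 12 of 244 did so. In WT, *clec-2* stood at 1.47 CPM in replicate 4 against 0.564 to 0.684 CPM in the others, *clec-65* at 48.7 CPM in replicate 1 against 58.5 to 59.7 CPM, *clec-84* at 126 CPM in replicate 1 against 154 to 158 CPM, and *clec-39* at 0.0384 CPM in replicate 2 against 0 CPM. In *pals-25(jy111)*, *clec-7* stood at 4.95 CPM in replicate 4 against 1.77 to 2.14 CPM, *clec-41* at 116 CPM in replicate 4 against 88.4 to 91.4 CPM, and *clec-210* at 2.86 CPM in replicate 1 against 4.91 to 5.08 CPM. In *pals-22(jy3)*, replicate 1 stood apart in *clec-71*, at 0.464 CPM against 0.419 to 0.422 CPM, and in *clec-74*, at 0.0273 CPM against 0.266 to 0.270 CPM. In the double mutant, *clec-33* stood at 0.0384 CPM in replicate 1 against 0.205 to 0.238 CPM, and in replicate 2 *clec-21* was at 0 CPM against 0.0683 to 0.0767 CPM and *clec-238* at 0.381 CPM against 1.02 to 1.13 CPM.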

How the results depend on the processing

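Of 120 called values of 61 named clec genes, 0 fell short of the threshold with DESeq2, 6 with limma-voom, 7 with DESeq2's size factors in edgeR, 9 in 1 fit over 16 libraries, 13 without a filter on low counts, 2 with a filter of 0.5 CPM in at least 1 library and 3 with the replicate block. In every fit with 1 library left out 82 passed, and 0 of the calls under any of these settings changed direction. The 120 include calls of genes that passed the filter through 1 group alone, which had to differ. Leaving out 1 library moved the counts of raised and lowered clec genes to 9 to 14 and 0 to 4 in *pals-25(jy111)* compared to WT, 12 to 23 and 26 to 36 in *pals-22(jy3)* compared to WT, 11 to 22 and 22 to 35 against the double mutant, 0 to 5 and 2 to 10 in the double mutant compared to WT, and 7 to 12 and 19 to 26 in *pals-22(jy3)* compared to *pals-25(jy111)*.

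A log2 threshold of 2 gave, raised and lowered, 5 and 2 in *pals-25(jy111)* compared to WT, 6 and 17 in *pals-22(jy3)* compared to WT, 18 lowered in *pals-22(jy3)* compared to the double mutant, 0 and 4 in the double mutant compared to WT, and 4 and 13 in *pals-22(jy3)* compared to *pals-25(jy111)*. A log2 threshold of 1 left 3 raised in the double mutant compared to WT. These thresholds lower counts by construction. DESeq2 gave 7 lowered in *pals-25(jy111)* compared to WT, 9 raised and 16 lowered in the double mutant compared to WT, and 13 raised in *pals-22(jy3)* compared to *pals-25(jy111)*. Without a filter on low counts, 3 were raised and 5 lowered in the double mutant compared to WT. The cause was not tested.

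With the replicate block, 25 were raised and 10 lowered in *pals-25(jy111)* compared to WT, 22 and 39 in *pals-22(jy3)* compared to WT and 20 and 46 in *pals-22(jy3)* compared to *pals-25(jy111)*, where same-numbered libraries deviated together. In the double mutant compared to WT, whose correlations ran from -0.22 to 0.49, the block gave 10 and 14, beside 3.77% and 6.3% of all genes, and in *pals-22(jy3)* compared to the double mutant (0.03 to 0.50) it gave 14 and 30, beside 11.6% and 10.9%. In the paired comparisons the block ended no call.

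Genes with few counts, such as *clec-33* in WT with 4 counts over the group and *clec-174* in *pals-22(jy3)* with 4, have fold changes that depend on the model's prior count.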
